A study of Fukomys damarensis and Heterocephalus glaber and Cavia porcellus with 28 samples.

Results

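Autophagy and lysosome membrane genes were followed across heart and liver of 4 rodent species. The set holds every row of the deposited tables whose mouse gene symbol names a numbered ATG gene, ULK1 to ULK4, an LC3 or GABARAP gene, WIPI1 or WIPI2, the lipid kinase subunits PIK3C3, PIK3R4 and UVRAG, RB1CC1, the cargo receptors SQSTM1, OPTN and NBR1, the lysosomal proteins LAMP1 and LAMP2, or TFEB. Becn1 belongs to the rule, but no row carried that symbol, and it was not analysed here. The rule found 39 genes among 13928 rows in each tissue. Of these, 38 passed the filter on low values in heart and 38 in liver, and Atg9b did not pass in either. The rule uses gene symbols and no expression value, though members were chosen with earlier results of these data known.

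The series compares gene expression in a pair of subterranean African mole-rats with a pair of outgroups. The hearts of 3 naked and 5 Damaraland mole-rats, 3 guinea pigs and 3 mice were sequenced, and the livers of 4, 5, 3 and 2 animals, respectively. Ages were 13 to 17 months in naked mole-rats, 36 to 48 months in Damaraland mole-rats, 2.3 months in guinea pigs and 2 months in mice. Age and species therefore cannot be told apart. All libraries came from males except 1 female, Damaraland liver replicate 4, and 1 Damaraland animal is given as 48 months old in its heart label and 36 months in its liver label. No treatment or genetic change is given for any group, and strains are not given in the sources used here. Of 18 animals, 10 gave both tissues. P-values below measure the spread between animals of a species.

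Autophagy encloses cytoplasm in a double membrane, the autophagosome, and delivers it to the lysosome for breakdown. A kinase complex starts the process, a lipid kinase complex marks the membrane, lipid transfer proteins enlarge it, and ubiquitin-like conjugation fixes LC3 and GABARAP proteins to it. Cargo receptors bind LC3 and GABARAP on one side and marked cargo on the other. In heart and liver the pathway is known for removing damaged mitochondria and protein aggregates and for releasing nutrients in fasting.

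Levels are given as scaled reads, the reads recovered from the deposited values divided by the size factor of the library. They hold no correction for gene length, so levels of different genes are not compared, and sums over a gene family are weighted by transcript length. How reads of each species were assigned to mouse genes is not given in the sources used here, so a species difference in RNA and one in annotation or mapping cannot be told apart. Differences are on the deposited log2-like scale, where rare genes are compressed, and carry the standard error (SE) and adjusted p of limma, a linear model fitted to all genes. Differences with an adjusted p under 0.05 and a size of at least 1 were called. A gene was called in both mole-rats when each mole-rat differed from each outgroup in 1 direction, and in 1 species alone when that species differed from each of the other 3 in 1 direction. In bulk tissue, fewer cells of a type and less RNA per cell cannot be told apart.

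The 14 heart libraries held 4089633 to 26985779 recovered reads and the 14 liver libraries 11220505 to 21467939. The shallowest was naked mole-rat heart replicate 3, which stood apart for several members, as given beside them. Tissue labels matched the markers: 4 hepatocyte genes with a row (Alb, Ttr, Fgb and Cps1) summed to at least 878894 scaled reads in every liver, and 5 cardiomyocyte genes to at least 411280 in every heart. The same 4 hepatocyte genes summed to 10707 to 30684 in naked mole-rat and 1762 to 5137 in Damaraland hearts. Guinea pig hearts gave 420.2 to 1953 and mouse hearts 322 to 1131. All 4 genes were called higher in naked mole-rat hearts than in those of each other species. Damaraland hearts were called higher than guinea pig hearts for Alb only, and higher than mouse hearts for Alb, Fgb and Cps1. Cardiomyocyte genes summed to 411280 to 848258 in naked mole-rat and 1088600 to 1526780 in Damaraland hearts, and 2 of the 5 were called between them, in opposite directions. Myh6 ran from 79102 to 518123 in naked and from 768224 to 1074730 in Damaraland hearts, and Ryr2 from 110894 to 150061 and from 39240 to 73579. Macrophage genes with a row (4 of 7) summed to 302 to 519 in naked mole-rat hearts against 899.5 to 2248, 1012 to 1096 and 1068 to 1354 in Damaraland, guinea pig and mouse hearts. All 4 were called lower in naked mole-rat than in mouse hearts. Against Damaraland mole-rats and guinea pigs only Cd163 was called, at 22.2 to 94.7 in naked, 327 to 1342 in Damaraland and 360 to 532 in guinea pig hearts. Liver macrophage sums overlapped, at 809 to 1779 in naked, 1067 to 1906 in Damaraland, 1557 to 2616 in guinea pig and 1512 to 1743 in mouse livers. Of that list Cd163 was at 0 in all naked mole-rat livers and at 2.86 to 12.9 in Damaraland, 3.39 to 6.99 in guinea pig and 228 to 481 in mouse livers. Cd68 was instead lowest in mouse livers (45.7 to 53.1), against 115 to 206 in naked, 431 to 939 in Damaraland and 676 to 1420 in guinea pig livers. Csf1r and Ptprc were called in no pair in liver. Bile duct genes (3 of 4) summed to 2136 to 2973 in naked mole-rat livers, 66.2 to 396 in Damaraland, 834 to 2047 in guinea pig and 26.8 to 47.2 in mouse livers. The naked sum was mostly Epcam (1883 to 2707), while Krt19 (185 to 264, against 732 to 1963 in guinea pigs) and Krt7 (0.727 to 5.53, against 33.0 to 76.2) were called lower in naked mole-rats than in guinea pigs. Fibroblast and stellate genes (4 of 5) summed to 34171 to 91982 in guinea pig hearts, mostly Col3a1. Their sums were 7590 to 15725 in naked, 7726 to 29854 in Damaraland and 5972 to 7570 in mouse hearts. In liver they summed to 3192 to 6529 in naked, 1594 to 3985 in Damaraland, 6704 to 9957 in guinea pig and 2822 to 3107 in mouse libraries. Of that list only Dcn was called in both mole-rats in liver, and it was lower. Its levels were 77.9 to 179 in naked, 35.1 to 65.2 in Damaraland, 1144 to 2318 in guinea pig and 692 to 1136 in mouse livers. Endothelial genes summed to 9637 to 11826 in guinea pig and 3218 to 4197 in mouse livers, with both mole-rats between them. In heart every mole-rat library lay below every outgroup library for this sum. Heart sums were 6043 to 8601 in naked, 5168 to 6117 in Damaraland, 11155 to 14765 in guinea pig and 8869 to 11345 in mouse libraries. Pecam1, Cdh5 and Kdr were called lower in Damaraland than in guinea pig hearts, while Stab2 was called higher in naked mole-rat hearts than in those of each other species. Skeletal muscle genes and Alas2, an erythroid gene, also gave calls between species in each tissue. Ckm was called lower in naked mole-rat hearts (13672 to 19174) than in Damaraland (106625 to 174566), guinea pig (64039 to 70787) and mouse hearts (41455 to 44925). Myh1 and Myh4 were instead called higher in naked mole-rat hearts than in those of each other species, and Acta1 higher than in guinea pig hearts. Alas2 was called higher in the mouse alone in each tissue. The part of these cell types and of depth in the results below was not tested, beyond leaving out single libraries.

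Set against the mean of the outgroups, the mean of the mole-rats differed for 12 of 38 members in heart, 2 higher and 10 lower, which is 31.6% of the members against 23.4% of all genes tested. In liver 8 of 38 differed, 2 higher and 6 lower, which is 21.1% against 28.1% of all genes. Lower calls made up 26.3% of members in heart and 15.8% in liver, where all genes gave 12.6% and 13.0%. Higher calls made up 5.26% of members in each tissue, where all genes gave 10.8% and 15.1%. The median difference of the members was -0.06 in heart and -0.49 in liver, and that of all genes was -0.01 and 0.02. The heart median of the members was 0.01 under quantile normalisation, so its sign depends on the scaling.

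**Figure D1:**
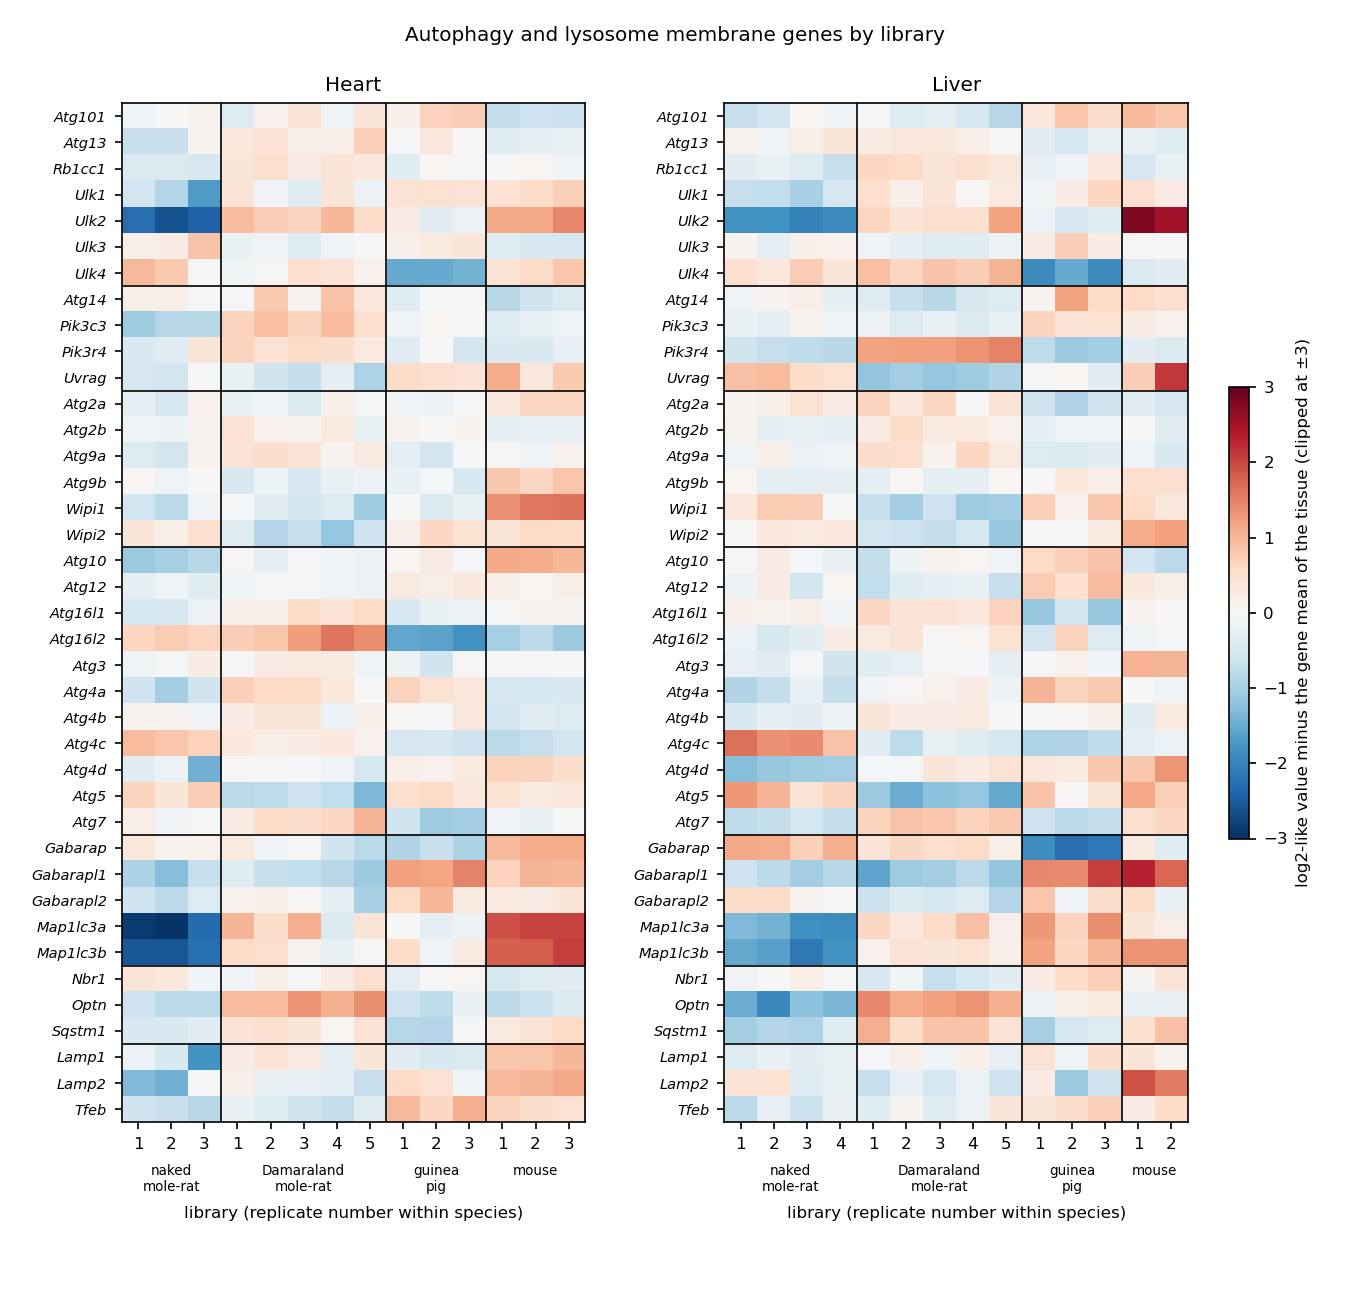
Deposited log2-like value of each member in each library minus the member's mean over all libraries of that tissue, heart on the left and liver on the right, with members in rows grouped by role and libraries in columns grouped by species. Naked mole-rat columns are low for Map1lc3a, Map1lc3b, Ulk1 and Ulk2 in both tissues, and both mole-rats are low for Gabarapl1.

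Calls common to both mole-rats were few. In heart 2 of 38 members were called in both mole-rats (5.26%, against 4.68% of all genes), Gabarapl1 lower and Atg16l2 higher. In liver Gabarapl1 was the 1 member called (2.63%, against 6.29% of all genes), again lower. Calls in the naked mole-rat alone covered 4 members in heart (10.5%, against 9.02%) and 7 in liver (18.4%, against 10.3%). All 4 in heart and 6 of the 7 in liver were lower, which is 10.5% and 15.8% of the members, where 4.14% and 4.45% of all genes were lower in the naked mole-rat alone. Calls in the Damaraland mole-rat alone covered 3 in heart (7.89%, against 6.76%) and 4 in liver (10.5%, against 8.81%). In the guinea pig alone 1 member was called in heart (background 6.61%) and 2 in liver (9.38%), and in the mouse alone 3 were called in each tissue (10.4% and 12.2%). No test compared the members with other genes.

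In pairs of species, naked minus Damaraland mole-rat gave 10 called members in heart (background 29.4%) and 13 in liver (34.2%), and guinea pig minus mouse gave 10 in each (32.1% and 37.2%). Naked minus guinea pig gave 14 in heart (background 33.0%) and 13 in liver (37.8%), and naked minus mouse gave 14 in each (38.2% and 41.2%). Damaraland minus guinea pig gave 9 in heart (29.7%) and 13 in liver (36.2%), and Damaraland minus mouse 13 (34.9%) and 14 (39.2%). At least 1 pair of species differed for 26 members in heart (background 72.0%) and 27 in liver (76.4%). Atg13, Atg2b, Atg4b, Atg9a, Nbr1, Rb1cc1 and Ulk3 were called in no contrast in either tissue. Nbr1 gained a call under quantile normalisation (Damaraland minus guinea pig in liver, -1.02), Ulk3 under voom on the recovered reads (naked minus mouse in heart, 1.08) and Atg13 without naked replicate 3 (naked minus Damaraland in heart, -1.03). Every mole-rat library lay on 1 side of every outgroup library for 9 members in heart (23.7%, against 15.2% of all genes) and 7 in liver (18.4%, against 16.1%). In heart Atg16l2 and Atg4c were higher and Atg12, Atg4d, Gabarapl1, Gabarapl2, Tfeb, Ulk1 and Uvrag lower in every mole-rat library. In liver Atg13, Atg2a and Ulk4 were higher and Atg101, Gabarapl1, Map1lc3b and Pik3c3 lower. The contrasts of a tissue share libraries, so their values are given side by side and not as separate evidence.

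**Figure D2:**
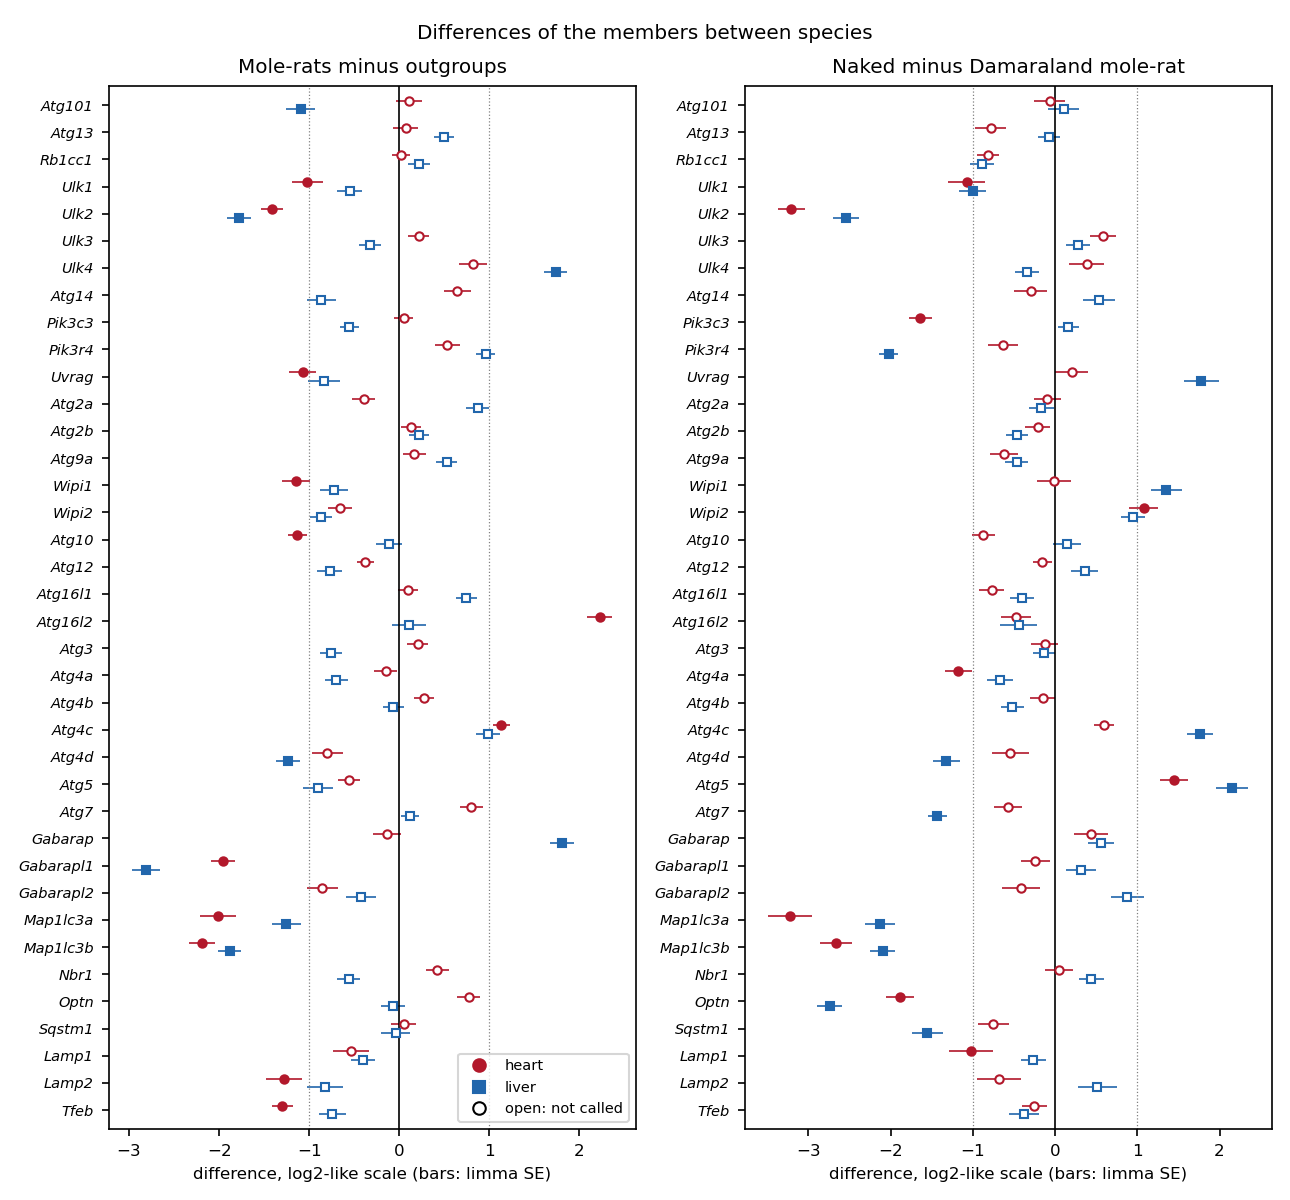
Differences of each member with the limma SE, on the deposited log2-like scale, for the mole-rat mean minus the outgroup mean and for naked minus Damaraland mole-rat, in heart and liver. Filled points were called, and the lowest values in the naked minus Damaraland panel belong to Map1lc3a, Ulk2 and Map1lc3b in heart and to Optn, Ulk2 and Map1lc3a in liver.

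The LC3 genes had the lowest levels in the naked mole-rat in both tissues. Map1lc3a (ENSMUSG00000027602) and Map1lc3b (ENSMUSG00000031812) encode the LC3 proteins, which are coupled to lipid on the growing autophagosome and bind cargo receptors. In heart, Map1lc3a had 170.0, 161 and 289 scaled reads in naked mole-rats and 3578, 2502, 3755, 1254 and 2273 in Damaraland mole-rats. It had 1721, 1405 and 1506 in guinea pigs and 6766, 7314 and 7256 in mice. All naked mole-rat hearts lay below, and all mouse hearts above, every other heart, while the Damaraland and guinea pig ranges overlapped. The naked minus Damaraland difference was -3.22 (SE 0.27, adjusted p = 2.78e-08), with a Damaraland mean 12.9-fold the naked mean. Naked minus guinea pig was -2.55 (SE 0.30, adjusted p = 1.69e-06) and naked minus mouse -4.70 (SE 0.30, adjusted p = 9.40e-10). Mice were also above Damaraland mole-rats, by a Damaraland minus mouse difference of -1.48 (SE 0.27, adjusted p = 0.000125), and above guinea pigs, by -2.15 (SE 0.30, adjusted p = 1.13e-05).

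Map1lc3b was likewise lowest in naked mole-rat hearts and highest in mouse hearts. Its scaled reads were 82.9, 84.3 and 119 in naked mole-rats, 1310.4, 1214, 911, 707 and 862 in Damaraland mole-rats, 1261, 763 and 1023 in guinea pigs and 3116, 3129 and 3770.2 in mice. Naked and mouse hearts did not overlap with any other species, and Damaraland and guinea pig hearts overlapped. Naked minus Damaraland was -2.67 (SE 0.20, adjusted p = 6.40e-09), naked minus guinea pig -2.69 (SE 0.22, adjusted p = 2.45e-08) and naked minus mouse -4.35 (SE 0.22, adjusted p = 5.13e-11). Damaraland and guinea pig differed by -0.03 (SE 0.20, adjusted p = 0.917), which was not called.

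In liver the naked mole-rat was again lowest for both LC3 genes, and the mouse no longer stood apart for Map1lc3a. Map1lc3a had 118, 109, 73.7 and 70.5 scaled reads in naked mole-rat livers, 562, 448, 547, 679 and 394 in Damaraland, 923, 580.0 and 983 in guinea pig and 461 and 410.3 in mouse livers. Naked livers lay below all others, and mouse livers fell within the Damaraland range. The differences were -2.13 (SE 0.19, adjusted p = 2.25e-08) for naked minus Damaraland, -2.74 (SE 0.21, adjusted p = 5.36e-09) for naked minus guinea pig and -1.90 (SE 0.24, adjusted p = 2.60e-06) for naked minus mouse. Map1lc3b had 131, 122, 74.5 and 104 in naked, 499, 619, 591, 638 and 522 in Damaraland, 1092, 723 and 940.2 in guinea pig and 1204 and 1215 in mouse livers. All 4 species were apart for this gene, in that order. The naked minus Damaraland difference was -2.10 (SE 0.15, adjusted p = 2.21e-09), naked minus guinea pig -2.73 (SE 0.17, adjusted p = 4.41e-10) and naked minus mouse -3.13 (SE 0.20, adjusted p = 4.73e-10). Damaraland minus mouse was -1.03 (SE 0.19, adjusted p = 0.000149), and its call ended without Damaraland replicate 1 (-0.99) and under quantile normalisation (-0.95).

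How the counting split reads between LC3 genes of similar sequence is not stated, so the pair was also summed. The sum was 245 to 407 scaled reads in naked mole-rat hearts, 1961 to 4888 in Damaraland, 2168 to 2982 in guinea pig and 9882 to 11027 in mouse hearts. Naked mole-rat livers gave 148 to 249, Damaraland livers 916 to 1316, guinea pig livers 1303 to 2015 and mouse livers 1625 to 1666. The naked mole-rat stayed below all other libraries for the sum in each tissue.

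Gabarapl1 was the member that set both mole-rats apart from both outgroups in each tissue. Gabarapl1 (ENSMUSG00000030161) belongs to the GABARAP branch of the same ubiquitin-like family, which acts in autophagosome maturation and in protein traffic. Heart levels were 228, 169 and 285 scaled reads in naked and 382, 296, 273, 256 and 201 in Damaraland mole-rats, against 1308, 1249.8 and 1584 in guinea pigs and 866, 1108 and 1102 in mice. Liver levels were 986, 870.5, 727 and 843 in naked and 483, 713, 725, 859.7 and 651 in Damaraland mole-rats, against 4203, 4158 and 6559.9 in guinea pigs and 7707 and 5169 in mice. No mole-rat library reached any outgroup library, and the mole-rats overlapped each other. The mole-rat mean minus the outgroup mean was -1.96 (SE 0.13, adjusted p = 1.82e-09) in heart and -2.81 (SE 0.16, adjusted p = 7.62e-11) in liver. Its 4 single contrasts lay between -2.28 and -1.63 in heart and between -3.15 and -2.46 in liver. Between the mole-rats, naked minus Damaraland was -0.24 (SE 0.18, adjusted p = 0.249) in heart and 0.32 (SE 0.18, adjusted p = 0.134) in liver, neither called.

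Gabarap (ENSMUSG00000018567), the founding member of that branch, was lowest in the guinea pig in liver. Guinea pig livers had 522, 382 and 422 scaled reads, against 4466, 4380.1, 3323 and 4310.4 in naked mole-rats, 2636, 3096, 2866, 3034 and 2293 in Damaraland mole-rats and 2441 and 1558 in mice. Guinea pig livers overlapped with no other species and were called lower against all 3: naked minus guinea pig was 3.12 (SE 0.18, adjusted p = 1.37e-10), Damaraland minus guinea pig 2.56 (SE 0.17, adjusted p = 1.02e-09) and guinea pig minus mouse -2.06 (SE 0.22, adjusted p = 3.67e-07). Naked minus mouse was 1.05 (SE 0.21, adjusted p = 0.00025), and its call ended without mouse replicate 2 (0.74). In heart, guinea pigs had 580.3, 691 and 561, naked mole-rats 1465, 1256 and 1271, Damaraland mole-rats 1429, 1067, 1144, 733 and 621 and mice 2321, 2591 and 2586. Mouse hearts were above all others, with differences of -1.31 (SE 0.21, adjusted p = 2.96e-05) for Damaraland minus mouse and -1.91 (SE 0.23, adjusted p = 2.29e-06) for guinea pig minus mouse. Naked minus mouse was -0.87 (SE 0.23, adjusted p = 0.00319), not called. The naked minus guinea pig difference was 1.03 (SE 0.23, adjusted p = 0.000955) in heart, and its call ended without guinea pig replicate 3 (0.98) or naked replicate 1 (0.97).

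Gabarapl2 (ENSMUSG00000031950), also called GATE-16, differed less. In heart it ranged over 536 to 719 scaled reads in naked, 462 to 1105 in Damaraland, 1209 to 2041 in guinea pig and 1172 to 1288 in mouse libraries. Naked minus guinea pig, -1.23 (SE 0.26, adjusted p = 0.000603), was its 1 called pair in heart, and no pair was called in liver. Summed with Gabarap and Gabarapl1, the 3 genes gave 1960.1 to 2317 in naked and 1285 to 2900.2 in Damaraland hearts, against 3354 to 3982 in guinea pig and 4402 to 4977 in mouse hearts. In liver the sum was 4939.9 to 6671 in naked, 3377 to 4514 in Damaraland, 5306 to 8183 in guinea pig and 7437 to 11364 in mouse libraries. Naked mole-rat and guinea pig livers overlapped for this sum, whereas they were apart for Gabarap and for Gabarapl1. Among reads of the 5 LC3 and GABARAP genes, Gabarapl1 took 51.1 to 64.9% in guinea pig and 57.0 to 59.1% in mouse livers, but 13.0 to 14.3% in naked and 10.3 to 15.2% in Damaraland livers. Gabarap took 64.5 to 70.0% in naked and 52.0 to 56.5% in Damaraland livers, and 4.17 to 6.35% in guinea pig and 17.2 to 18.7% in mouse livers.

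Among the genes of the initiation complex, Ulk2 stood far below all other species in the naked mole-rat. ULK1 and ULK2 are the kinases that start autophagosome formation in response to nutrient and energy signals. Ulk2 (ENSMUSG00000004798) had 107, 73.3 and 92.6 scaled reads in naked mole-rat hearts and 1574, 1381, 1314, 1662 and 1197 in Damaraland hearts. Guinea pig hearts had 947, 628 and 699 and mouse hearts 1855, 1859.5 and 2304. All 4 species were apart in heart, with mouse highest. For naked minus Damaraland the difference was -3.21 (SE 0.16, adjusted p = 5.02e-11), naked minus guinea pig -2.35 (SE 0.18, adjusted p = 1.16e-08) and naked minus mouse -3.68 (SE 0.18, adjusted p = 3.36e-11). The Damaraland mean was 15.7-fold the naked mean.

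Liver repeated the order of the species for Ulk2. Naked livers had 60.6, 60.8, 48.3 and 53.8 scaled reads, Damaraland 482, 410.2, 434, 438 and 740.4, guinea pig 262, 201 and 224 and mouse 2297 and 1879. Again no species overlapped with another. The contrasts were -2.54 (SE 0.16, adjusted p = 3.41e-10) for naked minus Damaraland, -1.55 (SE 0.18, adjusted p = 1.01e-06) for naked minus guinea pig and -4.55 (SE 0.21, adjusted p = 7.15e-12) for naked minus mouse. Mice were called higher than each other species, by a Damaraland minus mouse difference of -2.004 (SE 0.20, adjusted p = 1.57e-07) and a guinea pig minus mouse difference of -2.997 (SE 0.22, adjusted p = 4.28e-09).

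Ulk1 (ENSMUSG00000029512) was called lower in the naked mole-rat alone in both tissues, but close to the threshold. Heart levels were 871, 693 and 363 scaled reads in naked, 1819, 1257, 1019, 1749 and 1171 in Damaraland, 1834, 1878 and 1837 in guinea pig and 1857, 2002 and 2277 in mouse libraries. Naked replicate 3, the shallowest library, gave the lowest of these values, and all 3 naked hearts lay below every other heart. Naked minus Damaraland was -1.08 (SE 0.23, adjusted p = 0.000595). It was -0.76 without naked replicate 3, -0.98 without Damaraland replicate 1 and -0.99 without Damaraland replicate 4, which ended the call. Naked minus guinea pig was -1.49 (SE 0.25, adjusted p = 8.49e-05) and naked minus mouse -1.62 (SE 0.25, adjusted p = 3.01e-05). The mole-rat mean minus the outgroup mean, -1.02 (SE 0.17, adjusted p = 5.54e-05), also lost its call without any 1 of naked replicate 3 (-0.86), Damaraland replicate 3 (-0.97) or 5 (-0.99) or mouse replicate 3 (-0.98), and under median centring (-0.97) or quantile normalisation (-0.96).

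In liver Ulk1 ranged over 598 to 849 scaled reads in naked, 1234 to 1742 in Damaraland, 1143 to 1932 in guinea pig and 1436 to 1745 in mouse libraries, with the naked range apart from the others. The naked minus Damaraland difference was -1.003 (SE 0.16, adjusted p = 3.20e-05), naked minus guinea pig -1.0004 (SE 0.18, adjusted p = 0.00013) and naked minus mouse -1.10 (SE 0.21, adjusted p = 0.000179). Each of these sat near the threshold of 1. Under quantile normalisation the Damaraland call (-0.99) and the mouse call (-0.99) ended, and under median centring the Damaraland call (-0.97) and the guinea pig call (-0.99). The Damaraland call also ended without Damaraland replicate 1 (-0.94), 3 (-0.98) or 5 (-0.996) or naked replicate 2 (-0.997) or 3 (-0.92). The guinea pig call also ended without guinea pig replicate 3 (-0.81) or naked replicate 2 (-0.99) or 3 (-0.92), and the mouse call without mouse replicate 1 (-0.97).

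Ulk4 (ENSMUSG00000040936), a kinase-like relative, was nearly without reads in the guinea pig. Guinea pig hearts held 1, 1 and 2 recovered reads and guinea pig livers 1, 5 and 1, so no fold is given against them. In the other species Ulk4 ranged over 59.3 to 189 scaled reads in naked, 54.1 to 115 in Damaraland and 104 to 164 in mouse hearts. Liver ranges were 74.6 to 113 in naked, 102 to 141 in Damaraland and 31.9 to 37.7 in mouse libraries. The 3 species overlapped in heart. In liver both mole-rats lay above the mouse, and Damaraland minus mouse was 1.21 (SE 0.18, adjusted p = 2.18e-05). That call ended under quantile normalisation, at 0.93.

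The other genes listed with the complex were called in fewer pairs. Rb1cc1 (ENSMUSG00000025907), which encodes the FIP200 scaffold, ranged over 996 to 1029 scaled reads in naked, 1685 to 2012 in Damaraland, 1082 to 1494 in guinea pig and 1317 to 1481 in mouse hearts. Its widest difference was naked minus Damaraland, -0.81 (SE 0.13, adjusted p = 6.30e-05) in heart and -0.89 (SE 0.15, adjusted p = 4.42e-05) in liver, and no pair was called. Atg13 and Ulk3 were not called in any pair either. Atg101, named after its values were seen, was called in the mole-rat average in liver (-1.09, SE 0.16, adjusted p = 9.64e-06) and not in heart (0.11, SE 0.14, adjusted p = 0.503). In pairs, Atg101 was called lower in each mole-rat than in the mouse in liver, and higher in the guinea pig than in the mouse in heart.

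Of the lipid kinase genes, Pik3r4 was called higher in the Damaraland mole-rat alone in liver. PIK3C3 is the class III kinase that makes phosphatidylinositol 3-phosphate, and PIK3R4 is its regulatory subunit. Pik3r4 (ENSMUSG00000032571) had 1774, 1821, 1820.0, 1959 and 2175 scaled reads in Damaraland livers. Naked livers had 480.0, 452, 423 and 404, guinea pig livers 429, 334 and 349.8 and mouse livers 584 and 545. Damaraland livers lay above all others. Between the mole-rats, naked minus Damaraland was -2.03 (SE 0.12, adjusted p = 1.72e-10), Damaraland minus guinea pig 2.26 (SE 0.13, adjusted p = 1.48e-10) and Damaraland minus mouse 1.69 (SE 0.15, adjusted p = 4.05e-08). In heart the corresponding values were -0.63 (SE 0.18, adjusted p = 0.00699), 0.82 (SE 0.18, adjusted p = 0.00104) and 0.89 (SE 0.18, adjusted p = 0.000449), none of them called.

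Pik3c3 (ENSMUSG00000033628) was called between the mole-rats in heart. Heart levels were 177, 214 and 219 scaled reads in naked and 753, 897, 755, 915 and 656 in Damaraland mole-rats, with 399.6 to 472 in guinea pigs and 326 to 401 in mice. The mole-rats were the lowest and the highest species, with the outgroups between them and no overlap with either. For naked minus Damaraland the difference was -1.64 (SE 0.14, adjusted p = 3.81e-08) in heart and 0.16 (SE 0.13, adjusted p = 0.274) in liver. Uvrag and Atg14, which direct the kinase complex to late and early steps, were named after their values were seen. Uvrag was lower in the mole-rat average in heart (-1.07, SE 0.15, adjusted p = 9.24e-06), a call that ended without mouse replicate 1 (-0.98). In liver its Damaraland minus mouse difference was -2.504 (SE 0.26, adjusted p = 2.98e-07), and mouse libraries ranged over 632 to 1699.7 scaled reads. Atg14 was the 1 member called in opposite directions in the tissues for the same pair. Damaraland minus mouse was 1.03 (SE 0.20, adjusted p = 0.000254) in heart and -1.09 (SE 0.24, adjusted p = 0.000726) in liver. The heart call ended without Damaraland replicate 2 (0.93) or 4 (0.92) or mouse replicate 1 (0.92).

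**Figure D3:**
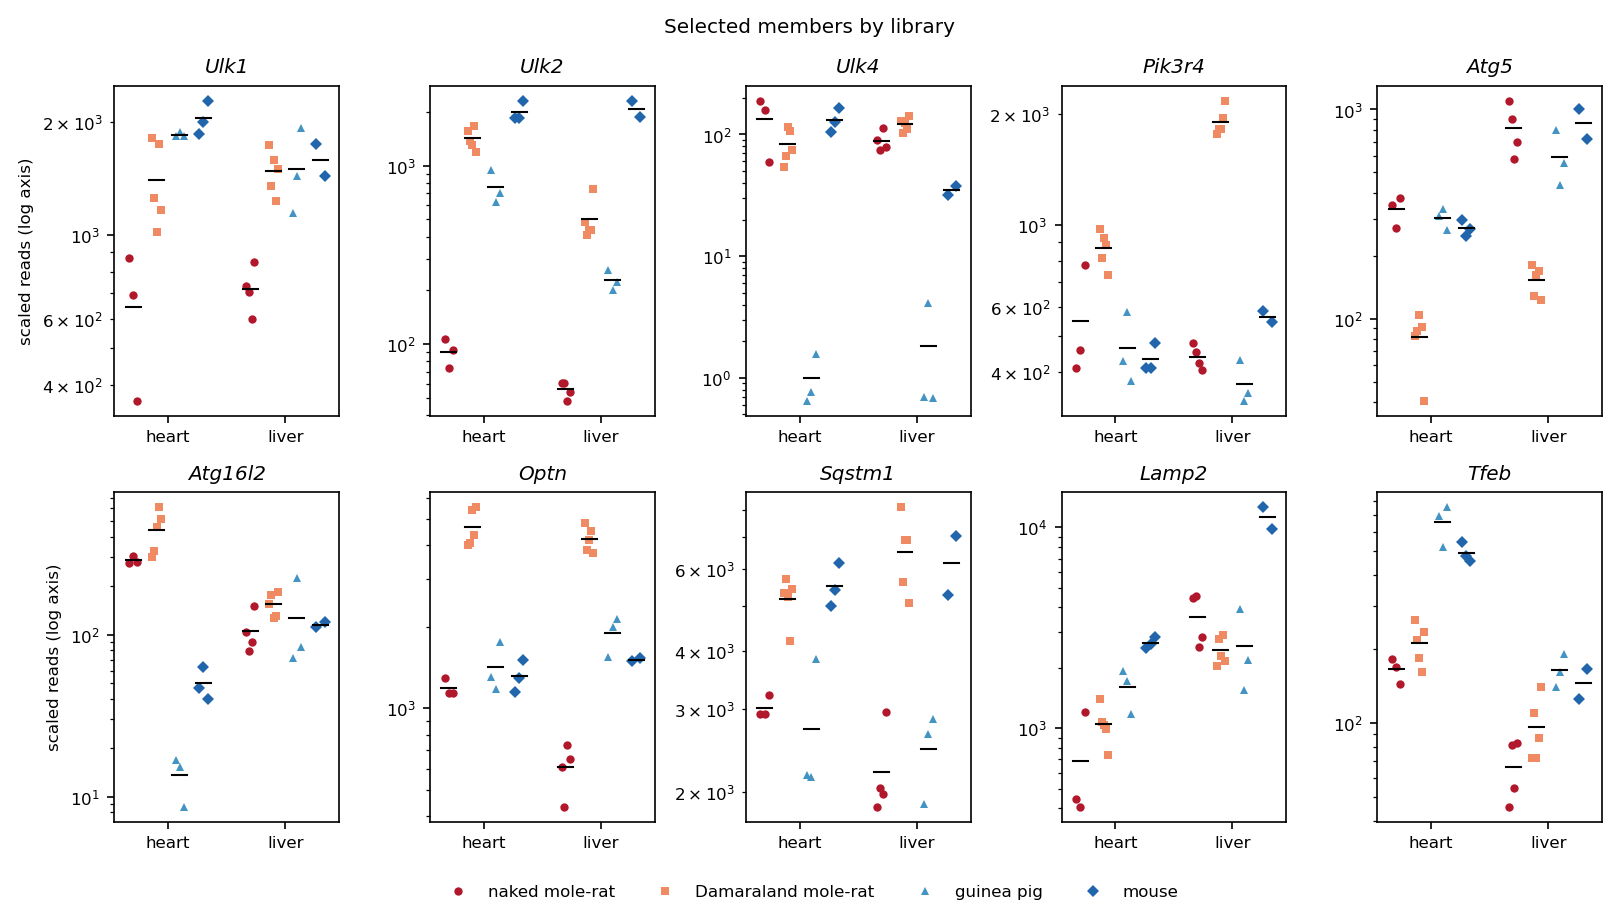
Scaled reads of 10 members in every library on a log axis, heart and liver, with points for animals and bars for species means. Ulk2 is lowest in naked mole-rats and Atg5 lowest in Damaraland mole-rats in both tissues, Optn is highest in Damaraland mole-rats, and Ulk4 is near 0 in guinea pigs.

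Genes of membrane supply and lipid binding included 2 WIPI genes that were low in the Damaraland mole-rat or high in the mouse. WIPI proteins bind the lipid made by PIK3C3 and recruit the conjugation machinery. In heart Wipi1 (ENSMUSG00000041895) had 1786, 2056 and 2146 scaled reads in mice and ranged over 333 to 585 in naked, 267 to 612 in Damaraland and 453 to 644 in guinea pig libraries. Mouse hearts lay above all others and were called against all 3, with naked minus mouse at -2.03 (SE 0.23, adjusted p = 1.01e-06), Damaraland minus mouse at -2.02 (SE 0.21, adjusted p = 2.63e-07) and guinea pig minus mouse at -1.74 (SE 0.23, adjusted p = 6.99e-06). In liver it was the Damaraland mole-rat that stood apart. Damaraland livers had 138, 100.2, 147, 97.9 and 104, against 248 to 445 in naked, 272 to 457 in guinea pig and 315 to 393 in mouse libraries. Naked minus Damaraland was 1.36 (SE 0.19, adjusted p = 6.11e-06), Damaraland minus guinea pig -1.45 (SE 0.20, adjusted p = 8.27e-06) and Damaraland minus mouse -1.35 (SE 0.23, adjusted p = 7.85e-05).

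Wipi2 (ENSMUSG00000029578) was called lower in the Damaraland mole-rat alone in heart. Damaraland hearts had 465, 304, 353, 237 and 373 scaled reads, and the ranges were 706 to 896 in naked, 698 to 993 in guinea pig and 824 to 955 in mouse hearts. The naked minus Damaraland difference was 1.08 (SE 0.17, adjusted p = 4.60e-05), Damaraland minus guinea pig -1.15 (SE 0.17, adjusted p = 2.17e-05) and Damaraland minus mouse -1.24 (SE 0.17, adjusted p = 8.83e-06). The first call ended without Damaraland replicate 4 (0.97). Liver naked minus Damaraland was 0.95 (SE 0.14, adjusted p = 1.61e-05), not called. Atg9a (ENSMUSG00000033124), which encodes the membrane protein of the vesicles that seed autophagosomes, ranged over 1179 to 1897 in naked, 1869 to 2569.6 in Damaraland, 1170.1 to 1693 in guinea pig and 1627 to 1914 in mouse hearts, and no pair was called in either tissue. Its relative Atg9b was at or under 5.07 scaled reads in all hearts but those of mice (24.1 to 35.3) and was not tested. Of the ATG2 genes, which encode lipid transfer proteins, Atg2b was called in no pair. Atg2a, named after its values were seen, was called in 1 pair, Damaraland minus guinea pig in liver (1.099, SE 0.16, adjusted p = 1.48e-05), and that call ended without guinea pig replicate 2 (0.996).

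Within the conjugation machinery, Atg5 was the gene that set the Damaraland mole-rat apart. ATG5 is joined to ATG12 and, with ATG16L1, forms the complex that places LC3 on membranes. In heart Atg5 (ENSMUSG00000038160) had 82.9, 87.5, 104, 91.2 and 40.6 scaled reads in Damaraland mole-rats, against 350.1, 272 and 378 in naked mole-rats, 310.0, 334 and 265 in guinea pigs and 297, 249 and 269 in mice. In liver it had 180.4, 128, 161, 169 and 123 in Damaraland, 1098, 901, 578 and 696 in naked, 794, 435 and 553 in guinea pig and 1004 and 722 in mouse libraries. Damaraland libraries lay below all others in each tissue, while the other 3 species overlapped. Between the mole-rats, naked minus Damaraland was 1.45 (SE 0.17, adjusted p = 1.18e-06) in heart and 2.15 (SE 0.20, adjusted p = 4.22e-08) in liver. Damaraland minus guinea pig was -1.34 (SE 0.17, adjusted p = 2.59e-06) and -1.71 (SE 0.21, adjusted p = 2.16e-06), and Damaraland minus mouse -1.21 (SE 0.17, adjusted p = 6.54e-06) and -2.24 (SE 0.25, adjusted p = 4.88e-07), for heart and liver, respectively. The naked mean was 4.10-fold the Damaraland mean in heart and 5.37-fold in liver.

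Atg16l2 (ENSMUSG00000047767), a less studied relative of Atg16l1, was called higher in both mole-rats in heart and not in liver, a difference between tissues that was not tested. It had 277, 305 and 282 scaled reads in naked and 301, 327, 463, 612 and 517 in Damaraland hearts, against 16.9, 15.3 and 8.67 in guinea pig and 47.1, 63.0 and 40.1 in mouse hearts. No mole-rat heart overlapped with an outgroup heart, and the mole-rat ranges overlapped. The mole-rat mean minus the outgroup mean was 2.23 (SE 0.14, adjusted p = 5.60e-10), and single contrasts ran from 1.64 to 2.82. Guinea pig livers spanned the ranges of the other 3 species, at 72.0 to 222 scaled reads, and the average contrast in liver was 0.11 (SE 0.19, adjusted p = 0.614). Atg16l1 (ENSMUSG00000026289) was called in no pair in heart. In liver it was lowest in guinea pigs, at 215, 339 and 216, and Damaraland minus guinea pig was 1.44 (SE 0.16, adjusted p = 3.47e-07). The naked minus guinea pig difference was 1.04 (SE 0.16, adjusted p = 2.49e-05), and its call ended without guinea pig replicate 1 (0.95) or 3 (0.95).

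Atg7 (ENSMUSG00000030314), the activating enzyme of both conjugation systems, was high in Damaraland and mouse livers. Liver levels were 288, 297, 339.6 and 296 scaled reads in naked, 829.8, 955, 919, 828 and 908 in Damaraland, 316, 275 and 296 in guinea pig and 731 and 803 in mouse libraries. Naked and guinea pig livers overlapped, and Damaraland livers lay above all others. For naked minus Damaraland the difference was -1.43 (SE 0.11, adjusted p = 6.59e-09), naked minus mouse -1.23 (SE 0.15, adjusted p = 1.26e-06), Damaraland minus guinea pig 1.47 (SE 0.12, adjusted p = 1.58e-08) and guinea pig minus mouse -1.27 (SE 0.15, adjusted p = 2.10e-06). In heart Damaraland minus guinea pig, 1.49 (SE 0.17, adjusted p = 1.32e-06), was its 1 called pair. Atg3 (ENSMUSG00000022663), the enzyme that hands LC3 to lipid, was called higher in the mouse alone in liver, with 839 and 816 in mice against 241 to 375 in naked, 292 to 399 in Damaraland and 365 to 428 in guinea pig libraries. Guinea pig minus mouse was -1.02 (SE 0.19, adjusted p = 0.000191), and its call ended without guinea pig replicate 1 (-0.999) or 3 (-0.97) or mouse replicate 1 (-0.999), under median centring (-0.96) and under quantile normalisation (-0.91). With it ended the call in the mouse alone. No pair was called for Atg3 in heart.

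The ATG4 proteases, which trim LC3 and GABARAP proteins and release them from lipid, stood at opposite ends in the naked mole-rat liver. Atg4c (ENSMUSG00000028550) had 1078, 886, 909.6 and 612 scaled reads in naked livers, against 172 to 267 in Damaraland, 150.4 to 173 in guinea pig and 255 to 277 in mouse libraries. Atg4d (ENSMUSG00000002820) had 79.5, 91.2, 97.4 and 98.2, against 231 to 343 in Damaraland, 299 to 453 in guinea pig and 448 to 657 in mouse livers. Naked livers lay above all others for Atg4c and below all others for Atg4d. For Atg4c naked minus Damaraland was 1.76 (SE 0.16, adjusted p = 3.13e-08), naked minus guinea pig 2.18 (SE 0.18, adjusted p = 1.20e-08) and naked minus mouse 1.56 (SE 0.20, adjusted p = 3.92e-06). For Atg4d they were -1.33 (SE 0.16, adjusted p = 1.51e-06), -1.60 (SE 0.19, adjusted p = 8.10e-07) and -2.19 (SE 0.21, adjusted p = 9.30e-08).

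In heart Atg4c was called higher in naked mole-rats than in both outgroups, by 1.36 (SE 0.14, adjusted p = 4.06e-07) against guinea pig and 1.504 (SE 0.14, adjusted p = 9.64e-08) against mouse, and its mole-rat average was 1.13 (SE 0.09, adjusted p = 2.10e-08). Naked hearts had 605, 559 and 500.1 scaled reads and Damaraland hearts 364, 328, 336, 366 and 312, and every mole-rat heart lay above the outgroups (157 to 180.2 and 130.1 to 169). The sum of Atg4a, Atg4b, Atg4c and Atg4d overlapped between naked mole-rats and every other species, at 1311 to 1821 in naked hearts and 1244 to 1588 in naked livers. Of the other conjugation genes, named after their values were seen, Atg10 was lower in the mole-rat average in heart (-1.13, SE 0.10, adjusted p = 4.97e-08) and was not called in liver (-0.11, SE 0.14, adjusted p = 0.517). Atg4a was lower in naked mole-rats than in guinea pigs in heart (-1.24, SE 0.19, adjusted p = 2.95e-05) and liver (-1.47, SE 0.17, adjusted p = 1.14e-06). Its naked minus Damaraland difference was -1.18 (SE 0.17, adjusted p = 1.51e-05) in heart and -0.67 (SE 0.15, adjusted p = 0.000975) in liver, the latter not called. Atg12 gave 1 called pair, Damaraland minus guinea pig in liver (-1.18, SE 0.18, adjusted p = 2.40e-05).

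The cargo receptor Optn took opposite positions in the mole-rats in liver. Optn (ENSMUSG00000026672) encodes optineurin, which links ubiquitin-marked cargo such as damaged mitochondria to LC3. Damaraland livers had 4836, 3837, 4192, 4511 and 3752 scaled reads and naked livers 606, 434, 733 and 652, with guinea pigs at 1542, 1998 and 2134 and mice at 1490.0 and 1529 between them. No Damaraland or naked liver overlapped with another species. Naked minus Damaraland was -2.74 (SE 0.15, adjusted p = 8.38e-11), a Damaraland mean 6.97-fold the naked mean. Naked minus guinea pig was -1.59 (SE 0.18, adjusted p = 4.76e-07) and naked minus mouse -1.29 (SE 0.20, adjusted p = 2.55e-05). Damaraland minus guinea pig was 1.15 (SE 0.17, adjusted p = 1.26e-05) and Damaraland minus mouse 1.46 (SE 0.19, adjusted p = 4.63e-06). The average of the mole-rats, -0.07 (SE 0.13, adjusted p = 0.659), showed neither position.

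In heart Optn was again high in Damaraland mole-rats, at 3993, 4069, 5389, 4356 and 5533 scaled reads, while naked mole-rats (1139 to 1298) overlapped with guinea pigs (1179 to 1765) and mice (1153 to 1503). The naked minus Damaraland difference was -1.89 (SE 0.17, adjusted p = 6.00e-08), Damaraland minus guinea pig 1.67 (SE 0.17, adjusted p = 2.30e-07) and Damaraland minus mouse 1.76 (SE 0.17, adjusted p = 1.05e-07). Sqstm1 (ENSMUSG00000015837) encodes p62, a receptor that is itself degraded with its cargo. Its liver levels fell into a low pair of species and a high pair, with 1857, 2039, 1974 and 2956 in naked and 1883, 2653 and 2858 in guinea pig libraries and 8129, 5613, 6899, 6917 and 5079 in Damaraland and 5280.4 and 7038 in mouse libraries. Neither pair overlapped with the other. Between the mole-rats, naked minus Damaraland was -1.55 (SE 0.19, adjusted p = 1.09e-06), naked minus mouse -1.47 (SE 0.24, adjusted p = 4.04e-05), Damaraland minus guinea pig 1.39 (SE 0.20, adjusted p = 1.10e-05) and guinea pig minus mouse -1.32 (SE 0.25, adjusted p = 0.000262). In heart the 1 called pair was guinea pig minus mouse, -1.04 (SE 0.21, adjusted p = 0.000362). That call ended without guinea pig replicate 1 (-0.91) or 2 (-0.91) or mouse replicate 3 (-0.96), and under quantile normalisation (-0.83). Nbr1 (ENSMUSG00000017119), a related receptor, ranged over 2175 to 4321 in all hearts and 2164 to 5757 in all livers and was called in no pair.

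Of the lysosome membrane genes, Lamp2 was highest in the mouse in both tissues. Lamp1 (ENSMUSG00000031447) and Lamp2 (ENSMUSG00000016534) encode the major glycoproteins of the lysosome membrane. In heart Lamp2 had 447, 407 and 1208 scaled reads in naked, 1397, 1075, 1040.3, 997 and 739.9 in Damaraland, 1921, 1715 and 1175 in guinea pig and 2502, 2627 and 2839.7 in mouse libraries. Mouse hearts lay above all others. The naked hearts split, with replicate 3 above the other two and inside the Damaraland range. Naked minus mouse was -1.98 (SE 0.30, adjusted p = 2.34e-05) and Damaraland minus mouse -1.30 (SE 0.27, adjusted p = 0.000457), and the mole-rat average was -1.28 (SE 0.20, adjusted p = 3.26e-05). For naked minus Damaraland the difference was -0.69 (SE 0.27, adjusted p = 0.0362) with all libraries and -1.14 without naked replicate 3, which was then called. In liver, mice had 12621 and 9858 and ranges were 2543 to 4557 in naked, 2048 to 2926 in Damaraland and 1557 to 3948 in guinea pig libraries. Mouse livers were called higher than all others, with naked minus mouse at -1.67 (SE 0.31, adjusted p = 0.000153), Damaraland minus mouse at -2.19 (SE 0.30, adjusted p = 6.51e-06) and guinea pig minus mouse at -2.21 (SE 0.33, adjusted p = 1.86e-05).

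Lamp1 in heart had 2793, 2274 and 859 scaled reads in naked and 3774, 4265, 3852, 2634 and 4109.9 in Damaraland mole-rats, with 2247 to 2508 in guinea pigs and 5665 to 6431 in mice. Naked replicate 3 was the lowest library for Lamp1, opposite to its place for Lamp2. Naked minus mouse was -1.70 (SE 0.30, adjusted p = 0.000113) and guinea pig minus mouse -1.30 (SE 0.30, adjusted p = 0.0014). Naked minus Damaraland was -1.02 (SE 0.27, adjusted p = 0.00353), and its call ended without naked replicate 3 (-0.53), Damaraland replicate 2 (-0.97) or Damaraland replicate 5 (-0.98), under quantile normalisation (-0.85) and with voom on the recovered reads (-0.99998). Liver Lamp1 ranged over 4729 to 8899 in all species, with no pair called.

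Tfeb (ENSMUSG00000023990) encodes the transcription factor that drives lysosome and autophagy genes when it enters the nucleus. Its heart levels were 183, 169 and 144 scaled reads in naked and 263, 218, 183, 161 and 234 in Damaraland mole-rats, against 691, 518 and 754 in guinea pigs and 545, 479 and 455 in mice. No mole-rat heart reached an outgroup heart. The mole-rat mean minus the outgroup mean was -1.30 (SE 0.12, adjusted p = 5.08e-08). The naked minus guinea pig difference was -1.60 (SE 0.17, adjusted p = 6.92e-07), naked minus mouse -1.25 (SE 0.17, adjusted p = 8.76e-06) and Damaraland minus guinea pig -1.35 (SE 0.16, adjusted p = 1.20e-06). Damaraland minus mouse was -0.998 (SE 0.16, adjusted p = 2.78e-05), just short of the size threshold, which kept Tfeb from being called in both mole-rats. It reached the threshold with voom on the recovered reads (-1.25) and without any 1 of Damaraland replicates 1 (-1.06), 2 (-1.01) and 5 (-1.03) or mouse replicates 2 (-1.01) and 3 (-1.05). Liver ranges were 45.7 to 82.9 in naked, 72.3 to 140.2 in Damaraland, 141 to 191 in guinea pig and 125 to 165 in mouse libraries, and the average contrast was -0.74 (SE 0.15, adjusted p = 0.000363). That average was not called, but was with voom (-1.007). Naked minus guinea pig was the only called pair in liver, at -1.007. Its call ended under quantile normalisation (-0.98) and without guinea pig replicate 3 (-0.91) or naked replicate 1 (-0.90) or 3 (-0.95).

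Across tissues, calls for members overlapped in part, and the differences between heart and liver themselves were not tested. Of 12 members called in the mole-rat average in heart and 8 in liver, 4 were shared with the same direction (Gabarapl1, Map1lc3a, Map1lc3b and Ulk2). These are 33.3% of the heart calls and 50% of the liver calls, where over the 10109 genes tested in both tissues 45.3% and 38.1% were shared. Of the 4, only Gabarapl1 was called in both mole-rats. Damaraland libraries lay above guinea pig libraries for Ulk2 in each tissue, and overlapped with them for Map1lc3a and Map1lc3b in heart. Map1lc3a, Map1lc3b, Ulk1 and Ulk2, the 4 members called in the naked mole-rat alone in heart, were also called in liver, where they made up 57.1% of the calls. Over all genes, 32.7% of the heart calls and 29.8% of the liver calls in the naked mole-rat alone were shared. Atg5 and Optn were shared for the Damaraland mole-rat alone, which is 66.7% of its heart calls and 50% of its liver calls, against 33.3% and 26.6% over all genes. For the mouse alone no member was shared, where all genes gave 31.4% and 26.4%. These shares rest on 3 to 12 members, and no test compared them. As 10 animals gave both tissues, heart and liver are not independent.

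Other genes of the pathway were taken from 6 lists with 109 names, of which 102 had a row and were tested. In the mole-rat average 25 of 102 were called in heart (24.5%), of which 11 were higher. Liver gave 22 calls (21.6%), of which 10 were higher. Calls in both mole-rats numbered 3 in heart (2.94%) and 4 in liver (3.92%). Over all genes tested, the average contrast gave 23.4% and 28.1% and calls in both mole-rats 4.68% and 6.29%. Heart gave 5 higher and 4 lower calls among 32 lysosomal enzyme and lumen genes, and liver gave 8 higher and 2 lower. Fusion and tethering genes (14) gave 3 higher and 2 lower calls in heart and 3 lower calls in liver. Of 14 further receptor genes, 3 were lower in each tissue and none was higher. Among 14 further lysosome membrane genes, heart gave 1 higher and 3 lower calls and liver gave 2 of each. The 16 proton pump genes and the 12 regulators each gave 1 higher and 1 lower call in heart and 1 lower call in liver.

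Trp53inp2 was called lower in both mole-rats in each tissue. It encodes a nuclear protein that moves to autophagosomes and binds LC3 and GABARAP proteins. It ranged over 207 to 1074 scaled reads in naked and 64.0 to 309.9 in Damaraland hearts, against 1633 to 2422 in guinea pig and 16096 to 17486 in mouse hearts, and the average contrast was -4.15 (SE 0.28, adjusted p = 1.53e-09). Liver ranges were 100.4 to 113 in naked, 26.7 to 44.6 in Damaraland, 369 to 506 in guinea pig and 3578 to 4505 in mouse libraries, with an average contrast of -3.73 (SE 0.12, adjusted p = 9.63e-14). Glb1, the lysosomal beta-galactosidase, was higher in both mole-rats in heart (1.68, SE 0.17, adjusted p = 2.19e-07), and Ctsf, the protease cathepsin F, was lower (-1.65, SE 0.17, adjusted p = 3.38e-07). Ctsf lost this status without naked replicate 3 (naked minus mouse -0.74) or mouse replicate 1 (naked minus mouse -0.97) and under quantile normalisation (naked minus mouse -0.99). In liver Asah1, the acid ceramidase, and Tpcn2, a cation channel of the lysosome membrane, were higher in both mole-rats, at 1.46 (SE 0.14, adjusted p = 5.40e-08) and 2.91 (SE 0.19, adjusted p = 5.86e-10). Asah1 lost it without guinea pig replicate 2 (naked minus guinea pig 0.90) or naked replicate 1 (0.93) or 2 (0.91) and under quantile normalisation (0.97). Retreg1, a receptor for autophagy of the endoplasmic reticulum, was lower, at -2.26 (SE 0.29, adjusted p = 2.74e-06).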

How the data were processed

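Total RNA of flash-frozen heart and liver was depleted of ribosomal RNA and sequenced on an Illumina NovaSeq, per the labels' protocols. The authors deposited, for each tissue, a table of variance-stabilised (log2-like) values with 13928 mouse gene identifiers, of which 13921 matched a symbol (the transform is given in the file names). The submitters' processing notes name cutadapt, Salmon 013.1, DESeq2 and the GRCm38 build, with no role or order. How genes were matched across species is not given in the sources used here. The 26 columns that belong to other series were not used.

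Rows with 0 reads hold the value 5.36451 in heart and 4.28926 in liver. The transform was inverted from these floors, and 100% of the values checked (up to 10000 reads) lay within 0.001 of a whole number of reads. These recovered reads divided by the size factor are the scaled reads. The tables carry separate transforms, so sharing between heart and liver was counted by calls. Differences, folds and scaled reads of the tissues are also given side by side, and no test compared them.

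The deposited values of each tissue were fitted in limma 3.58.1 (R 4.3.3), with a coefficient for each species, a variance trend and Benjamini-Hochberg adjustment over all genes with a mean of at least the floor plus 1 (10667 in heart, 10887 in liver). The average contrast is the mean of the mole-rats minus the mean of the outgroups. The fitting code was tested on simulated data. Members, roles, pathway lists and marker lists were chosen with earlier results of these data known. Genes given in detail were those called in both mole-rats or in 1 species alone, the 3 largest called average contrasts in each direction, and a fixed list (Ulk1, Rb1cc1, Becn1, Pik3c3, Atg5, Atg7, Atg9a, Atg16l1, the LC3 and GABARAP genes, Sqstm1, Optn, Nbr1, Lamp1, Lamp2 and Tfeb); others are said to be named after their values were seen. Alternatives were no size threshold, no filter, a filter at the table median, quantile normalisation, centring, no variance trend, a replicate block, voom on the recovered reads, and leaving out each library. They were applied to the counts for the other pairs of species and for the guinea pig or mouse alone after seeing the data.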

Additional observations from a re-analysis of the deposited data

Results flagged for a closer look

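Within groups of 4 or 5 libraries, 4 of 74 groups held a library far from the rest, and chance alone would place about 1 in 20 groups there. In Damaraland hearts Atg5 was low in replicate 5, at 6.74 on the deposited log2-like scale against 7.27 to 7.47 in the others (40.6 scaled reads against 82.9 to 104). Lamp1 was low in Damaraland heart replicate 4, at 11.41 against 11.91 to 12.09 (2634 scaled reads against 3774 to 4265). Gabarap was low in naked mole-rat liver replicate 3, at 11.72 against 12.09 to 12.14 (3323 scaled reads against 4310.4 to 4466). Ulk2 was high in Damaraland liver replicate 5, at 9.61 against 8.81 to 9.02 (740.4 scaled reads against 410.2 to 482). Leaving out these libraries ended no call of these genes in the same tissue.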

How the results depend on the processing

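With no size threshold more of all genes were called as well (background in brackets). Called members in heart then numbered 26 in the average (67.3%), 23 for naked minus Damaraland (62.4%), 27 for naked minus mouse (65.2%), 24 for Damaraland minus guinea pig (61.9%), 30 for Damaraland minus mouse (66.6%), 17 for guinea pig minus mouse (59.6%), 5 in both mole-rats (14.8%), and 9, 8, 5 and 11 in the naked mole-rat, Damaraland mole-rat, guinea pig and mouse alone (23.4%, 19.6%, 19.2% and 26.2%). In liver they numbered 30 in the average (68.0%), 25 for naked minus Damaraland (67.7%), 24 for naked minus guinea pig (65.5%), 23 for naked minus mouse (64.2%), 31 for Damaraland minus guinea pig (65.6%), 27 for Damaraland minus mouse (63.6%), 16 for guinea pig minus mouse (58.8%), 7 in both mole-rats (15.9%), and 14, 7 and 7 in the Damaraland mole-rat, guinea pig and mouse alone (21.5%, 21.2% and 25.0%). Members called in both mole-rats in heart numbered 1 with the filter at the table median (4.12%), which leaves Atg16l2 untested, and 4 with voom on recovered reads (8.37%). In liver they numbered 2 with voom (8.96%), and the reported counts were 2 and 1. In the guinea pig alone, heart gave 0 with that filter (6.33%), which leaves Ulk4 untested, and 3 with voom (11.4%), and liver gave 1 with the filter (8.21%), against 1 and 2. The other counts of calls in the average, in pairs, in both mole-rats and in 1 species alone stayed within 1.5 times the reported ones. Of 82 called contrasts of members in heart and 85 in liver, quantile normalisation ended 3 and 7, median centring 1 and 3, and voom 1 and 0, while voom added 17 and 14. Leaving out single libraries gave 11 to 12 calls in the heart average and 8 to 10 in the liver average, 2 to 3 and 1 in both mole-rats, 3 to 4 and 6 to 7 in the naked mole-rat alone, and 2 to 3 and 4 to 5 in the Damaraland mole-rat alone. Average contrasts near 0 changed sign: Gabarap in heart was 0.015 with the replicate block, and without single libraries Rb1cc1 in heart ran from -0.044 to 0.066, Sqstm1 in heart from -0.017 to 0.19, Optn in liver from -0.14 to 0.0031 and Sqstm1 in liver from -0.14 to 0.063. The cause was not tested. Libraries of the same replicate number did not deviate together (mean correlation -0.00016 over 18 pairs in heart and 0.0008 over 16 in liver), so the numbers are names. The replicate block gave 12 calls in the heart average, 2 in both mole-rats and 2 in the Damaraland mole-rat alone, and 9, 1 and 4 in liver. It ended the calls of Wipi2 (naked minus Damaraland, 0.98) and Atg14 (Damaraland minus mouse, 0.90) in heart, and in liver those of Ulk1 against Damaraland mole-rat and guinea pig (-0.996 and -0.999), Map1lc3b (Damaraland minus mouse, -0.97) and, among the pathway genes, Asah1 (naked minus guinea pig, 0.998). Mouse liver rests on 2 libraries, and naked heart replicate 3, with 4089633 reads, is the shallowest library.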
